A study of Sus scrofa with 4 samples.

Results

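The genes described here control blood clotting and the removal of clots. The list held 9 genes: F3 (tissue factor), F5 and F8 (coagulation factors V and VIII), TFPI (tissue factor pathway inhibitor), THBD (thrombomodulin), PROCR (endothelial protein C receptor), PLAT and PLAU (tissue-type and urokinase-type plasminogen activator) and PLAUR (urokinase receptor). A probe belonged to a gene when the gene name printed on the array was that symbol. This rule found 7 of the 9 genes with 19 probes, out of 34853 gene names with 43603 probes in the whole series. TFPI was found only through its RefSeq accession, as 1 probe listed as LOC100155068, and is given beside the others but not counted among them. PLAUR had no matched probe and was not analysed here.

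Tissue factor on a cell surface starts coagulation by binding factor VII, and TFPI blocks that complex. Factors V and VIII are cofactors that speed up the later steps, while thrombomodulin and the endothelial protein C receptor help thrombin to activate protein C, which inactivates both cofactors. PLAT and PLAU turn plasminogen into plasmin, which dissolves fibrin and also cuts extracellular matrix. Adipose tissue is known as a source of tissue factor.

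Expression was measured in PIP cells, a preadipocyte line from the muscle of a Duroc pig, and in pMA, the adipocytes made from them. The 4 conditions were undifferentiated PIP cells, pMA after 4 days in differentiation medium (50 ng/ml insulin, 0.25 µM dexamethasone, 2 mM octanoate and 200 µM oleate), pMA with 100 µM serotonin for 12 h, and pMA with 2.5 µg/ml TNF-α for 12 h. Both stimulated groups had received the same differentiation medium, which holds a glucocorticoid, whereas PIP cells had not, and all cells were between passages 26 and 35. Each condition was 1 array of RNA pooled within its group, and all 4 arrays lay on 1 slide. No difference could therefore be set against replicates, and p-values are not given.

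Values are levels on a log2 scale, at which 0 is the array's own 75th percentile of intensity (515 in PIP cells, 479 in pMA, 566 after serotonin and 559 after TNF-α). A log2 ratio is the difference between levels of 1 probe on 2 arrays. Repeated spots of 1 probe gave a log2 ratio a standard deviation of 0.10 where levels were -2 or above and 0.22 where they were lower, which covers only spot noise within arrays. Between 56.5% and 66.0% of probes were well above background on an array. Where a probe was dim on 1 of the arrays compared, the ratio is a lower bound against the faintest spot well above background there. In pooled bulk RNA, fewer cells of a type and less RNA per cell cannot be told apart.

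The cells carried fibroblast transcripts and a partial set of adipocyte transcripts. All 7 preadipocyte or fibroblast markers on the array were well above background in every condition. Their summed level, in units of the 75th percentile, was 485 in PIP cells, 476 in pMA, 259 after serotonin and 381 after TNF-α. COL1A2 was by far the highest of them on each array, at log2 levels of 8.66, 8.55, 7.63 and 8.26. The sum therefore mainly follows that gene. Of 8 adipocyte markers, 5 were well above background in PIP cells and 5 in pMA, and of that pair of arrays ADIPOQ was so only in PIP cells and FABP4 only in pMA. ADIPOQ lay near the detection limit on both, at -4.53 in PIP cells and -4.83 in pMA. Of 6 adipocyte markers with a ratio between these arrays, 3 were past 2-fold higher in pMA and 0 lower. Their median log2 ratio was 0.72, against 0.12 over all gene names. FABP4, a fatty acid carrier of adipocytes, was at least 8.48-fold higher in pMA than in PIP cells. CIDEC was 14.7-fold higher (2 probes with log2 ratios of 0.75 and 3.88), and PPARG was 2.10-fold higher. ADIPOQ and PLIN1, which mark mature adipocytes, were not well above background in pMA. The endothelial markers CDH5, TEK and CLDN5 were not well above background on any array, whereas PECAM1 and KDR were on all 4. The summed level of the 6 endothelial markers on the array was 1.60, 1.17, 0.517 and 1.17 in the same order as above. PECAM1 was the highest of them on each array, at log2 levels of 0.42, -0.20, -1.66 and -0.14, so this sum mainly follows 1 gene.

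Each probe is a designed oligonucleotide of 60 bases, and the probes of 1 gene need not report the same transcript. The 3 probes of PROCR are shown because they gave different answers. All sequences run 5′ to 3′, come from the array files, and are cut to their first 30 bases where only those are given. No position in a genome is given, since the files list every one of these probes as unmapped. In the first probe below, capitals mark the copies of the motif CTGCTG.
PROCR A_72_P686957: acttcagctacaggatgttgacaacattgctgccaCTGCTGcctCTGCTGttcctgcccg
PROCR A_72_P591519: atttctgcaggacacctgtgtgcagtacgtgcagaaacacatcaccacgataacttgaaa
PROCR A_72_P336123, first 30 bases: taggacattatatttctagaagacttgggg
CTGCTG stood 2 or more times in 0.156% of the 43603 probes. It stood at least once in 2.96% of them on the probe strand and in 2.64% on the opposite strand. The motif is a stretch of A_72_P686957 itself, so these shares only describe that probe. Its part in the disagreement of the probes was not tested. G and C made up 55.0% of A_72_P686957, 45.0% of A_72_P591519 and 41.7% of A_72_P336123, against a median of 41.7% over all probes. The longest run that A_72_P686957 shared with a probe of another gene name was 15 bases, on the opposite strand, and it was 13 bases for A_72_P591519 and 14 bases for A_72_P336123. In these letters no PROCR probe had a long match elsewhere on the array.

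THBD also had 3 probes, of which a single one, A_72_P440066, was well above background on any array, and that array was serotonin.
THBD A_72_P440066, first 30 bases: gtcatgtatgtgtagcttttgtaatgcaaa
THBD A_72_P375698: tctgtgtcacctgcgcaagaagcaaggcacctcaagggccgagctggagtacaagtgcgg
THBD A_72_P694043, first 30 bases: cacttttatttttgaaacaatgaactgggc
The G and C share was 35.0% in the first of these probes and 36.7% in the last, and highest in A_72_P375698. Their longest runs in common with probes of other gene names were 14, 15 and 14 bases.

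For tissue factor and the plasminogen activators several probes agreed, and those that carry the values below are shown. Capitals mark the start of a run of 48 bases that the first pair of PLAT probes shares. They are therefore nearly the same measurement rather than independent ones.
F3 A_72_P177461, first 30 bases: tgagactgtatgttctctacattgaggtga
F3 A_72_P641835: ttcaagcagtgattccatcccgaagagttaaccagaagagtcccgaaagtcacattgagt
PLAT A_72_P620649, first 30 bases: CGTGTTTATTTACTATGTTGCCACAACCCT
PLAT A_72_P303274, first 30 bases: atccagtctCGTGTTTATTTACTATGTTGC
PLAT A_72_P564214: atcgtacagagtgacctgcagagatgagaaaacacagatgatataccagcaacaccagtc
PLAU A_72_P073101, first 30 bases: gagtgaggtgaggaccactcctgtacactg
PLAU A_72_P010246: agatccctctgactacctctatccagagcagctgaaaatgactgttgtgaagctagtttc
The PLAT probes A_72_P585786 and A_72_P597973 shared a run of 43 bases, and A_72_P642480 shared 29 bases with A_72_P597973. The PLAT probe A_72_P564214 shared at most 7 bases with the other 5. Both F3 probes shared at most 8 bases, and both PLAU probes at most 4.

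F5, F8 and TFPI each rested on a single informative probe.
F5 A_72_P035926, first 30 bases: atgtgaaatccttatgatatagctccttat
F8 A_72_P146841: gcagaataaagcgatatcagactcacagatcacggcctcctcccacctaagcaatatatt
TFPI A_72_P029441: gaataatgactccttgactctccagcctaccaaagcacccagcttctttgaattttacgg

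F3, the trigger of coagulation, was lower in pMA after both stimuli than in unstimulated pMA. The intensity of the F3 probe A_72_P177461 was 17979 in PIP cells, 15775 in pMA, 6300 after serotonin and 10787 after TNF-α. Its scaled levels were 5.12, 5.04, 3.48 and 4.27 in that order. PIP cells and pMA lay within spot noise of each other, TNF-α lay below them and serotonin was the lowest. Against pMA, F3 was 2.96-fold lower after serotonin (log2 ratio -1.57) and 1.71-fold lower after TNF-α (-0.77). The other F3 probe, A_72_P641835, had levels of 3.80, 3.89, 2.15 and 3.06, with log2 ratios of -1.74 after serotonin and -0.83 after TNF-α. Both probes thus put the conditions in the same order from pMA down to serotonin. Serotonin and TNF-α are each set against the same pMA array. Between the stimulated arrays F3 was 1.73-fold higher after TNF-α than after serotonin. Across the scalings tried, the log2 ratio of F3 between pMA and PIP cells lay between -0.43 and 0.30, so its sign is not settled, while the serotonin ratio stayed between -1.57 and -1.46.

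TFPI, the inhibitor of the tissue factor complex, was near background throughout. The level of A_72_P029441 was -4.41 in PIP cells, -4.21 in pMA, -4.06 after serotonin and -4.44 after TNF-α, and in pMA the probe was not well above background. The levels spanned 0.38, which for this dim probe lies within 2 standard deviations of spot noise, and its conditions are given in no order.

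**Figure D1:**
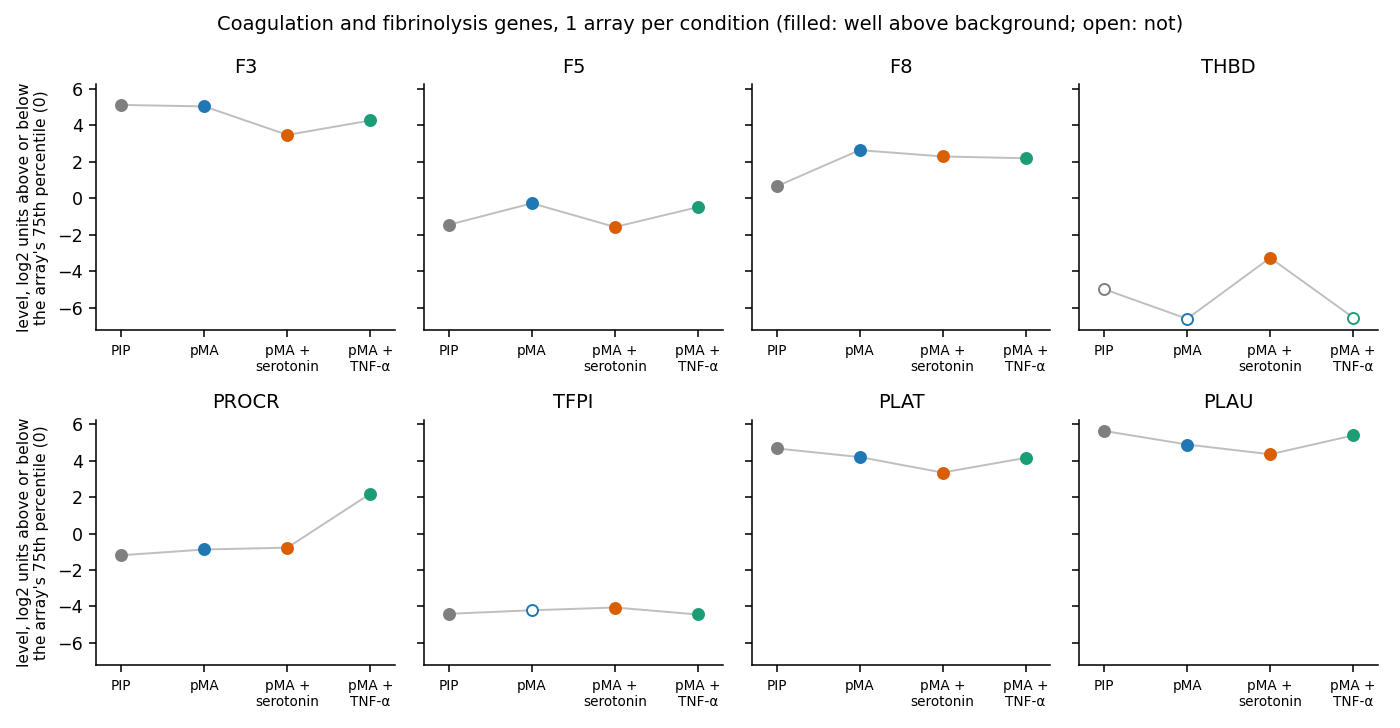
Level of each gene on the 4 arrays, through the probe with the highest mean (log2 units relative to the array's 75th percentile; 1 point per array, filled where well above background, open where not, with lines joining the points of a probe). F3 was lowest after serotonin, F5 and F8 were higher in pMA than in PIP cells, THBD was well above background only after serotonin, and PROCR by this probe was highest after TNF-α.

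The cofactor genes F5 and F8 were both higher in pMA than in PIP cells, but differed after serotonin. The intensity of F5 was 188 in PIP cells, 395 in pMA, 189 after serotonin and 399 after TNF-α, which gives scaled levels of -1.46, -0.28, -1.58 and -0.49. PIP cells and serotonin-treated pMA were thus at the low end, and pMA and TNF-α-treated pMA at the high end. F5 was 2.27-fold higher in pMA than in PIP cells and 2.47-fold lower after serotonin than in pMA (log2 ratios 1.18 and -1.30), with a Feature Extraction error of 0.21 for each ratio. After TNF-α the log2 ratio of F5 was -0.21. With scaling to the median the F5 ratio was 0.83 on the log2 scale, under 2-fold, as the median of all gene names moved from 0.12 to -0.22.

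F8 had an intensity of 809 in PIP cells, 2986 in pMA, 2775 after serotonin and 2561 after TNF-α. The PIP array stood apart from the 3 pMA arrays. On the scaled levels (0.65, 2.64, 2.29 and 2.20) F8 was 3.98-fold higher in pMA than in PIP cells, a log2 ratio of 1.99 that ranked 216 from the top among 18633 gene names. It kept this direction over the scalings tried, from 1.64 to 2.37. Against pMA the log2 ratios of F8 were -0.35 after serotonin and -0.45 after TNF-α, and the stimulated arrays differed by 0.10, which is the spot noise. The other F8 probe, A_72_P248687, was not well above background on any array and gives no ratio.

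THBD, the thrombin receptor that turns thrombin toward protein C, was detected after serotonin and on no other array. The intensity of A_72_P440066 was 16.2 in PIP cells, 4.87 in pMA, 58.5 after serotonin and 5.97 after TNF-α, and only the serotonin value was well above background. The serotonin value exceeded that of pMA at least 2.57-fold, and exceeded that of TNF-α-treated pMA at least 3.93-fold. No ratio was formed between pMA and PIP cells, or between TNF-α and pMA, since both sides were dim. The remaining THBD probes lay between 3.64 and 10.6 in intensity over the 4 arrays and were not well above background on any. THBD detection therefore rested on 1 spot on 1 array. With normexp background correction the bound against pMA was 0.74 on the log2 scale, under 2-fold.

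PROCR, which presents protein C to the thrombin complex, was higher in stimulated pMA, but its probes disagreed on whether TNF-α or serotonin gave the higher value. By A_72_P686957 the intensity was 226 in PIP cells, 261 in pMA, 331 after serotonin and 2554 after TNF-α. The first 3 arrays lay far closer to each other than to TNF-α, which stood alone, 8.38-fold above pMA (log2 ratio 3.07), at rank 32 from the top of 19782 gene names. By A_72_P336123 the intensity was 33.4, 49.1, 193 and 80.0 in the same order, and here serotonin was the highest, 3.32-fold above pMA (1.73). By A_72_P591519 it was 22.6, 29.6, 118 and 70.3, with serotonin 3.38-fold (1.76) and TNF-α 2.03-fold (1.02) above pMA.

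All 3 PROCR probes were well above background on all 4 arrays, and each gave a positive log2 ratio for both stimuli against pMA, though that of A_72_P686957 for serotonin was no larger than spot noise. The serotonin ratios were 0.10, 1.73 and 1.76, and the TNF-α ratios 3.07, 0.48 and 1.02, for A_72_P686957, A_72_P336123 and A_72_P591519. Between TNF-α and serotonin the log2 ratio was 2.97 by the first probe, -1.25 by the second and -0.73 by the third. The spread of 4.22 over the probes is far beyond the spot noise of 0.22, and no value here tells which probe reports the full PROCR transcript. In pMA against PIP cells the ratios were 0.32, 0.66 and 0.49. With scaling to the median the first of these became -0.03.

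**Figure D2:**
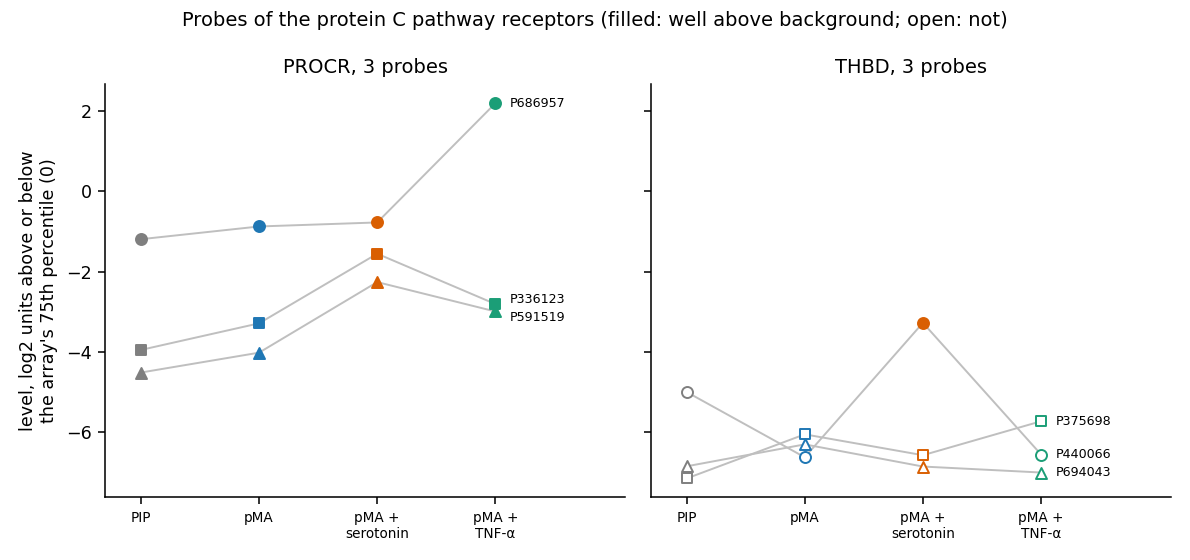
Levels of the 3 probes of PROCR (left) and of THBD (right) on the 4 arrays, in log2 units relative to the array's 75th percentile, with 1 symbol shape per probe, filled where well above background and open where not, and lines joining the points of a probe. Of the PROCR probes, P686957 is highest after TNF-α and the other 2 after serotonin; of the THBD probes, only P440066 after serotonin is filled.

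Both plasminogen activator genes were lower after serotonin than after TNF-α. The intensity of the PLAT probe A_72_P620649 was 13147 in PIP cells, 8804 in pMA, 5759 after serotonin and 9967 after TNF-α, with scaled levels of 4.67, 4.20, 3.35 and 4.16. By this probe serotonin was the lowest array, pMA and TNF-α did not differ beyond spot noise, and PIP cells were the highest. PLAT was 1.81-fold lower after serotonin than in pMA (log2 ratio -0.85), short of 2-fold. Over its 6 probes the serotonin ratio ran from -0.98 to -0.78, and the ratio of TNF-α to serotonin from 0.76 to 0.90, so that each probe gave the same sign. This held for the dim probe A_72_P564214 as well, at levels of -2.35, -2.31, -3.08 and -2.18. For TNF-α against pMA the 6 probes lay on both sides of 0, from -0.21 to 0.12. For pMA against PIP cells they ran from -0.59 to 0.04. Over the scalings tried, that ratio by A_72_P620649 lay between -0.82 and -0.09, the latter within spot noise.

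PLAU was the activator that differed in opposite directions after the stimuli. Its intensity by A_72_P073101 was 25604 in PIP cells, 14183 in pMA, 11552 after serotonin and 23423 after TNF-α, and the scaled levels were 5.63, 4.89, 4.35 and 5.39. PIP cells and TNF-α-treated pMA were high, pMA lower and serotonin-treated pMA the lowest. Against pMA the log2 ratio was -0.54 after serotonin and 0.50 after TNF-α, and it was -0.72 and 0.51 by the other PLAU probe, A_72_P010246. Neither stimulus reached 2-fold against pMA. Between TNF-α and serotonin, PLAU was 2.05-fold higher by the first probe and 2.35-fold higher by the second. In pMA the log2 ratio to PIP cells was -0.75, and over the scalings tried it lay between -1.09 and -0.37, negative throughout.

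**Figure D3:**
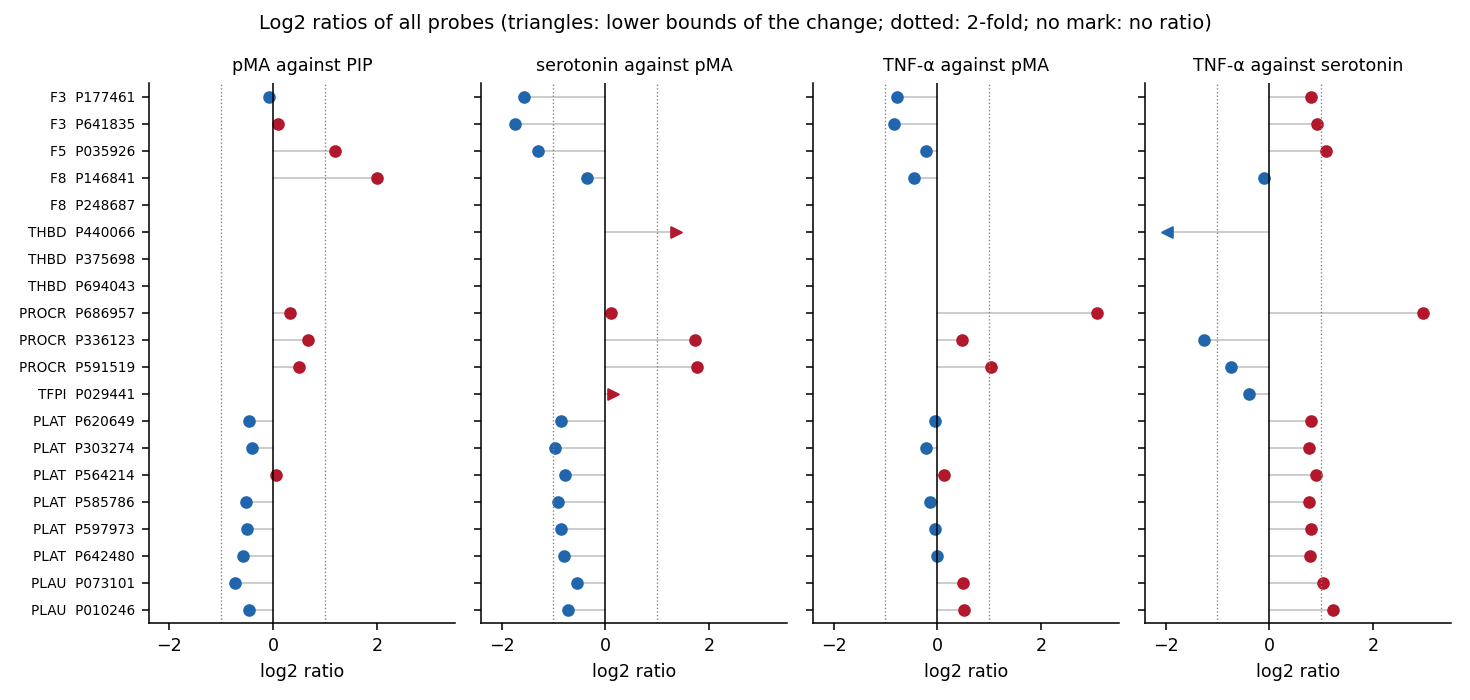
Log2 ratio of each probe in the 4 comparisons (horizontal axis), with 1 row per probe grouped by gene, dots for measured ratios, triangles for lower bounds, no mark where no ratio was formed, and dotted lines at 2-fold. The 6 PLAT probes, 2 PLAU probes and 2 F3 probes lie left of 0 for serotonin against pMA, and the PROCR probes fall on both sides of 0 for TNF-α against serotonin.

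Counted over the genes found by name, F5 and F8 made 2 of 6 with a ratio past 2-fold in pMA against PIP cells, both higher, where 13.5% of 18633 gene names were past 2-fold in either direction. With scaling to the median it was again 2 of 6, but F8 higher and PLAU lower (-1.09), with F5 at 0.83. In serotonin against pMA it was 3 of 7, with F3 and F5 lower and THBD higher, where 6.82% of 19095 names were past 2-fold. In TNF-α against pMA it was PROCR alone, 1 of 6, where the share over all names was 3.56%. In TNF-α against serotonin it was 4 of 7, with F5, PLAU and PROCR higher and THBD lower, where the share was 6.9%. With scaling to the median, F5 (0.97) and PLAU (0.92) were under 2-fold in this last comparison. The THBD entries are bounds, and the PROCR entries are by A_72_P686957. In serotonin against pMA that probe gave a log2 ratio of 0.10, under 2-fold, while the other PROCR probes gave 1.73 and 1.76. With so few genes these counts are a description.

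The median log2 ratio of these genes was 0.12 in pMA against PIP cells, equal at this precision to that of all gene names, 0.12. After serotonin it was -0.54, with 5 of 7 genes below 0, against 0.01 over all names. After TNF-α it was -0.13, with 4 of 6 below 0, against 0.01. Between TNF-α and serotonin it was 0.81, with 5 of 7 above 0, against 0.04. The comparisons share arrays, so these medians are not independent of each other.

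Among 11 other fibrinolysis genes, 5 were on the array, and ANXA2 and S100A10 had a ratio. ANXA2 and S100A10 encode annexin A2 and its partner protein, a cell-surface receptor for PLAT and plasminogen. By the brightest probe of each, 1 of these was past 2-fold in serotonin against pMA, lower, where the share over all names was 6.82%. By the same probes, 0 were past 2-fold in the other 3 comparisons. S100A10 had levels of 5.95 in PIP cells, 5.48 in pMA, 4.19 after serotonin and 4.59 after TNF-α. Both stimulated arrays lay below both unstimulated ones. S100A10 was 2.45-fold lower after serotonin than in pMA (-1.29, with 5 probes from -1.47 to -1.29) and 1.85-fold lower after TNF-α (-0.89). ANXA2, at 8.74, 8.62, 7.93 and 8.39 on the same arrays, had a log2 ratio of -0.70 after serotonin (3 probes from -1.08 to -0.70). The plasminogen gene PLG was not well above background on any array, nor were SERPINA5 and CPB2.

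**Figure D4:**
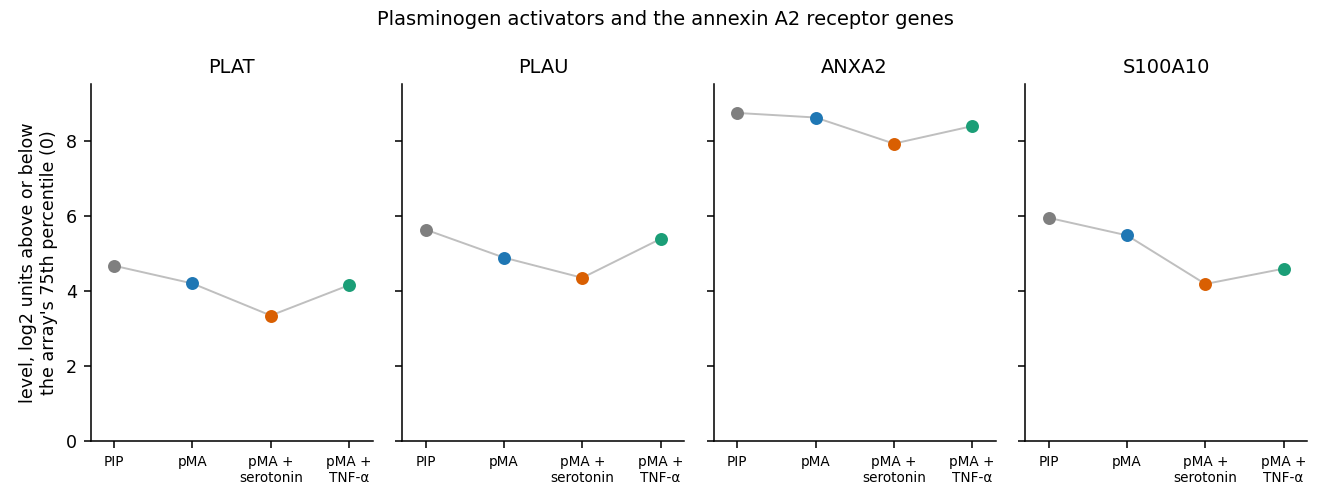
Levels of PLAT, PLAU, ANXA2 and S100A10 on the 4 arrays, in log2 units relative to the array's 75th percentile, through the probe of each gene with the highest mean, all well above background, with lines joining the points of a probe. Each gene is lowest on the serotonin array, with S100A10 at 4.19 there and 5.48 in pMA.

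Markers of several cell types also differed after serotonin. Of the 7 preadipocyte or fibroblast markers, DCN (log2 ratio -1.16) and COL1A1 (-1.41) were past 2-fold lower after serotonin. The median of these 7 was -0.88 after serotonin and -0.37 after TNF-α. The endothelial marker PECAM1 had a log2 ratio of -1.46 after serotonin (4 probes from -1.46 to -0.44), and the platelet integrin gene ITGA2B was 2.84-fold lower, while the other platelet markers with a ratio, GP9 (0.04) and GP1BA (0.13), were slightly above 0. Among the adipocyte markers, FABP4 was 6.83-fold lower after serotonin and LPL, a lipase that releases fatty acids, 5.32-fold higher, and the median of 5 markers was 0.16. The part of these shifts in the values of F3, PLAT, PLAU and S100A10 was not tested. Of THBD and PROCR, genes known from endothelium, 1 THBD probe and 2 of the 3 PROCR probes were higher after serotonin. The remaining THBD probes were dim, and the PROCR probe A_72_P686957 gave a log2 ratio of 0.10. How these values relate to the endothelial markers was not tested.

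Among 30 other coagulation genes, 13 were on the array. None had a ratio past 2-fold in pMA against PIP cells, serotonin against pMA or TNF-α against pMA, with 7, 7 and 9 ratios. Over all gene names the shares past 2-fold were 13.5%, 6.82% and 3.56%. Several of the coagulation gene ratios are lower bounds, so those genes may differ by more. Just under the cutoff lay the bounds of VWF (0.997) and F7 (0.967) in pMA against PIP cells, and of FGL2 (-0.934) in serotonin against pMA. In TNF-α against serotonin 1 of 10 was past 2-fold, where the share over all names was 6.9%. This was FGL2, a prothrombin-cleaving enzyme, which was not well above background after serotonin and exceeded that limit at least 2.99-fold after TNF-α. Over the 3 FGL2 probes with a ratio, the log2 values ran from 0.72 to 1.58. The median log2 ratio of these other coagulation genes, bounds included, was 0.35, -0.27, 0.29 and 0.45 in the 4 comparisons. Over all names it was 0.12, 0.01, 0.01 and 0.04. F9, SERPIND1 and KLKB1 were not well above background on any array. Of the liver markers, ALB lay between -4.62 and -3.77 and was well above background on all arrays. TTR by its brightest probe was so only after TNF-α, and APOB was not well above background on any array. Of the leukocyte markers, CD14 and AIF1 were well above background on all arrays and CD163 on none.

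For the genes detected on all arrays, the gene symbols with the most similar profile were taken from 4839 candidates by the distance between the 4 centred levels. For F3 they were EMILIN1, GNA14 and GSN (distances 0.18, 0.21 and 0.24), for F5 ANXA8, TMEM108 and ZNF385D (0.09, 0.14 and 0.21), and for F8 SLC12A5, OSM and LUM (0.06, 0.11 and 0.15). For PLAT they were UNC5B, TUBB2B and FLNA (0.09, 0.11 and 0.12), and for PLAU SMAP2, TINAGL1 and SRPK3 (0.10, 0.13 and 0.15). PROCR by A_72_P686957 had no neighbor closer than 0.48, the first being NDUFAB1, CSN2 and PTGIR. CSN2, a milk casein gene, was at -0.75, -0.66, -0.72 and 3.01 on the 4 arrays. With 4 arrays such likeness is a description of these pools.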

How the data were processed

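The authors deposited scanner output of 4 one-color (Cy3) porcine arrays, read by Agilent Feature Extraction 10.7.3.1 per the labels, in which the processed intensity is background-subtracted. The study's methods describe mouse arrays scanned with GenePix and also porcine arrays in 2 colors. The files match the porcine description in species and in the Feature Extraction version, but hold 1 color. The deposited value table holds a linear ratio, the processed intensity over 1 constant per array, and served as an alternative. Control spots and outlier spots (1 to 12 per array) were left out, intensities were divided by each array's 75th percentile over 43803 spots and put on a log2 scale, and spots of a probe were averaged. No spot was saturated. Where a gene had several probes, the brightest on average over the arrays stood for it. With 1 array per condition no test was run, and the 2-fold cutoff is that of the study's methods. The precision is limited by the number of arrays. Repeated spots (21 to 25 probes per array) gave the technical error. No value column lacked a sample.

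Named were all listed genes with every probe, fixed lists of other coagulation and fibrinolysis genes (values for those past 2-fold), marker lists, and the 3 nearest profiles of genes detected on all arrays and spanning at least 2-fold. ANXA2, PECAM1, ITGA2B and genes near background were named after their values were seen. The members and lists were chosen with earlier results of these data known. TFPI and F10 were matched by RefSeq accession (Sscrofa11.1 table), which renamed 274 of 1309 LOC entries. The alternatives were 3 other scalings, normexp (limma 3.58.1, R 4.3.3, offset 50), other filters, probe rules and cutoffs, the value table and, added after seeing the data, scaling to spike-in probes. The ratio code was tested on simulated data. Python 3.11.15 with numpy 2.4.6, pandas 2.3.3 and matplotlib 3.10.9 was used. The fibrinolysis list was counted without 1 gene that is not reported here.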

Additional observations from a re-analysis of the deposited data

How the results depend on the processing

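No paired analysis was possible because each condition had 1 array, and no array could be left out. The count of genes past 2-fold in pMA against PIP cells was 1 with normexp and 0 at a 4-fold cutoff. In serotonin against pMA it was 0 at 4-fold. It was 4, with PROCR added at 1.73, both for the median over the probes of a gene and through the probe detected on most arrays. In TNF-α against pMA it was 2 at 1.5-fold and 0 through the probe detected on most arrays. In TNF-α against serotonin it was 2 with scaling to the median, 2 with normexp and 1 at 4-fold. The median of the genes in pMA against PIP cells was -0.23 with scaling to the median, -0.082 with no filter on dim probes, 0.29 through the probe detected on most arrays and 0.50 with spike-in scaling, chosen after seeing the data, where the median of all names was -0.22, 0.42, 0.13 and 0.52. In serotonin against pMA it was -0.70 over genes well above background on all 4 arrays and -0.72 through the probe detected on most arrays. PROCR in TNF-α against serotonin reversed with the probe rule, to -0.73 for the median over its probes and -1.25 through the probe detected on most arrays. Where probes were detected on equally many arrays, as for F3, PROCR, PLAT and PLAU, the latter rule took the first by probe name. For these genes its choice therefore did not rest on detection. For THBD in serotonin against pMA the bound on the log2 scale was 0.74 with normexp. With no filter the ratio to the dim pMA value was 3.35, which is no bound. Of the single-gene values under the alternatives, 239 moved by less than the spot noise over all levels (0.15 to 0.17 for a log2 ratio), 34 by more, and the 2 values of PROCR above were those past 2-fold that changed sign. A further 6 values under 2-fold changed sign, for F3 and PROCR in pMA against PIP cells and PLAT in TNF-α against pMA. The faintest spot well above background lay between -5.25 and -4.64, and this limits THBD and TFPI.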
